A study of Mus musculus with 27 samples.

Results

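This report describes what changed across genes in wild-type (WT) mouse embryonic fibroblasts (MEFs) over the first 2 days of their conversion to induced neuronal (iN) cells. The comparison rests on 6 bulk RNA-seq libraries, 3 of WT cells on day 0 and 3 of WT cells on day 2, out of 27 libraries in the series; they were chosen by the genotype and day in their labels. The MEFs came from mid-gestation embryos without head and heart, with 4 embryos pooled per preparation and sex not determined. All cells, those of day 0 included, already carried lentiviruses for a set of neuronal transcription factors, Brn2 (Pou3f2) and Myt1l among them, under a tetracycline-responsive promoter and a virus for the activator M2rtTA. On day 0 the serum medium was exchanged for serum-free N3 medium, with insulin, transferrin, basic FGF, and doxycycline, which switches the factors on. The day 0 cells are therefore transduced fibroblasts in serum, and the day 2 cells differ from them in factor induction, medium, serum, doxycycline, and time, which cannot be told apart in this design. The cultures also hold macrophages. Libraries of the same days from Per1-/- MEFs (6 libraries) and from MEFs labelled Per2-/- (6 libraries), prepared and treated alike, and the 3 WT libraries of day 4 are used below only to show where the WT change differs.

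Pou3f2 is a POU-domain factor of neural progenitors, and Myt1l is a zinc-finger repressor of non-neuronal genes. In the developing nervous system proneural factors of the basic helix-loop-helix (bHLH) family bind E-boxes and switch on Notch ligands in the cells that become neurons, and Notch signalling to the neighbours holds those back. Fibroblasts in serum, in turn, carry a contractile and wound-like program that depends on serum response factor (SRF), on YAP, and on TGF-beta.

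The depth of the 6 libraries was 16270681 to 24264097 fragments assigned to genes. Values are FPKM, fragments scaled by gene length and by sequencing depth, as the authors deposited them, and the lists of 3 values below give replicates 1, 2, and 3 in that order. Replicates of WT cells correlated at r = 0.955 to 0.971 across genes on the log2 scale, and no library stood apart from its group. Genes were compared with limma on log2(FPKM + 0.1), so the fold changes of low genes are understated. A call needed an adjusted p (Benjamini-Hochberg) no higher than 0.05 together with a change of 0.58 or more on the log2 scale in either direction, and "rose" and "fell" are used only of called genes.

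Of 14932 genes tested, 3101 (20.8%) rose and 2944 (19.7%) fell between day 0 and day 2, which is 40.5% in either direction. The libraries of the 2 days did not overlap for 67.2% of all tested genes, and for 97.7% of the called ones. Among the tested genes, 329 were higher by 3 or more on the log2 scale and 111 lower. The filter used the mean over all 27 libraries, most of them from days after day 0. It therefore passed genes present only on later days more easily than genes present only on day 0. Its part in this difference was not tested. In calls of any size, falls outnumbered rises with a pseudocount of 1 (2620 and 2319). They also did with a filter at a mean of 1 FPKM (2765 and 2529). The number of falls depended on the scaling. The deposited FPKM carry a size factor per library, and their sum was 358975 to 374624 on day 0 and 261289 to 274800 on day 2. When every library was rescaled to a common sum, the median of all genes moved from -0.01 to 0.41 on the log2 scale, and 5564 genes were called higher and 1253 lower. All 3101 rises were called again there, as were 1253 of the 2944 falls, and no called gene changed its sign. The counts of the gene lists below stand beside the shares of all tested genes given here. List counts and medians after rescaling stand beside the rescaled counts and the median of 0.41.

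**Figure D1:**
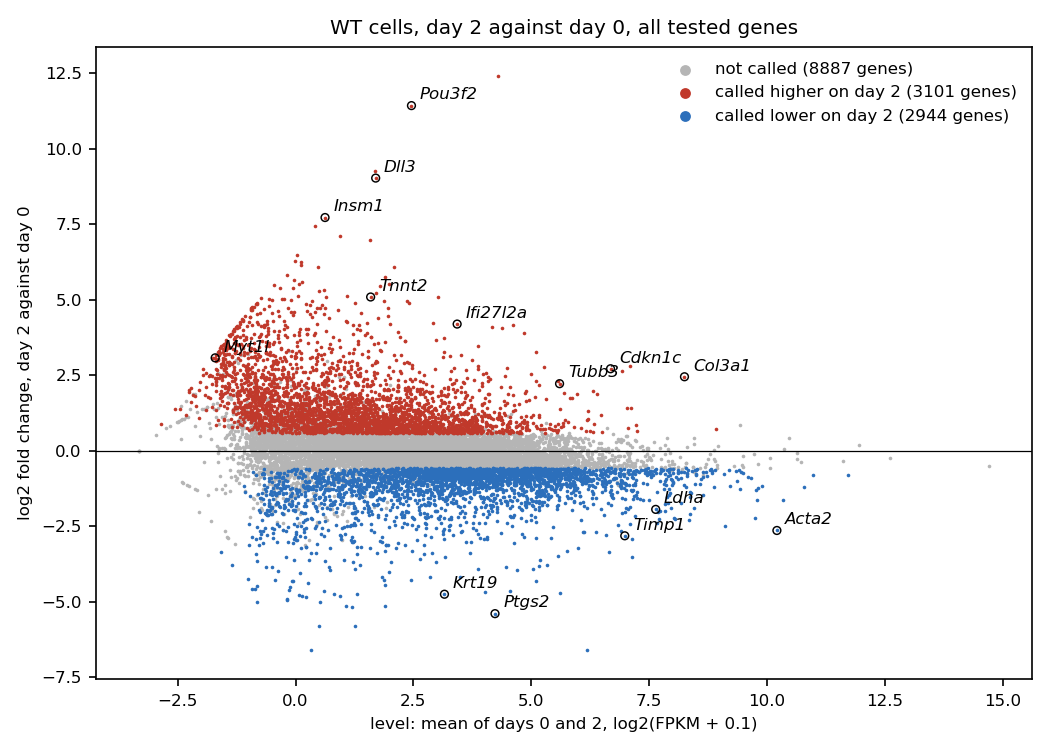
Log2 fold change of each of the 14932 tested genes between day 0 and day 2 in WT cells, against the mean level of both days on the log2(FPKM + 0.1) scale. Red points are the 3101 genes called higher, blue points the 2944 called lower, and grey points were not called. Pou3f2 and Dll3 lie near the top, and Ptgs2 near the bottom.

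Of the transduced factors, Pou3f2 and Myt1l rose in all day 2 libraries, to very unequal levels. Pou3f2 (ENSMUSG00000095139, chromosome 4 from 22482780 to 22488366) was at 0, 0, and 0.00892 FPKM on day 0, from 1 fragment in all, and at 228, 245, and 406 FPKM on day 2, a ratio of 96186 (95% counting interval 17263 to 3799180). The third day 2 library was the highest. Myt1l (ENSMUSG00000061911, chromosome 12 from 29528384 to 29923213) reached only 0.771, 0.524, and 1.12 FPKM on day 2, from 0.0112, 0, and 0 FPKM on day 0, where 3 fragments were counted in all, a ratio of 227 (95% counting interval 77.3 to 1103). On this per-length scale its day 2 level was far below that of Pou3f2, and the third library was again the highest. Ratios from 1 to 3 day 0 fragments are given with exact 95% intervals, here and below, that cover counting error only. The reads of these genes include the viral copies and the cells' own, which cannot be told apart here.

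Genes of neuronal commitment were among the largest rises. Of 28 tested members of a list of proneural and neuronal transcription factors, 20 rose and 3 fell, with a median log2 fold change of 2.38 beside -0.01 over all tested genes. The list held 45 genes, and the filter on the mean over all 27 libraries decided which were tested. Members near 0 on day 0 were tested only because they were higher in other libraries. The share of rises and the median therefore depend in part on the filter. Insm1, a zinc-finger factor of nascent neurons and endocrine cells, was at 0, 0.0156, and 0 FPKM on day 0 and at 18.8, 19.5, and 29.2 FPKM on day 2, a ratio of 4119 (95% counting interval 739 to 162714). The groups did not overlap. Hes6, a bHLH factor that opposes Hes1, rose from 10.1, 12.1, and 10.4 to 107, 98.2, and 112 FPKM, a log2 fold change of 3.27 (standard error 0.162, adjusted p = 2.78e-12). Sox11, an HMG-box factor of immature neurons, rose by 2.67 on the log2 scale and the zinc-finger repressor Zbtb18 by 2.25. St18, a paralog of Myt1l, rose from a mean of 0.0667 to 1.47 FPKM. Cbfa2t3, a corepressor induced by proneural factors, rose by 4.79. Neurod4, a later bHLH factor of neurogenesis, was listed at 0 in all 6 libraries. All the named members of this group that rose kept their call with any 1 library left out.

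In the Notch pathway the Delta-like ligands rose most. Of 27 tested members 12 rose and 3 fell, with a median of 0.47. Dll3, a ligand-like protein that acts within the sending cell, went from 0.0184, 0.0339, and 0.06997 to 59.8, 62.3, and 102 FPKM, a log2 fold change of 9.03 (standard error 0.293, adjusted p = 3.88e-15). Dll1, the main ligand of neurogenesis, went from 0.0498, 0.0229, and 0.0118 to 7.28, 8.46, and 11.7 FPKM, and Dll4 from a mean of 0.00431 to 3.38 FPKM. For Dll4 the day 0 mean rests on 1 fragment. No day 2 library of these 3 genes overlapped with a day 0 library. Mfng, a glycosyltransferase that tunes the receptor, rose by 4.65, and Dner, a neuronal Notch ligand-like protein, from a mean of 0.824 to 28.4 FPKM. The targets moved unequally. Hes1, the repressor that Notch induces, fell from 32.1, 27.5, and 23.3 to 13.8, 14.2, and 12.03 FPKM, while the targets Hey1 and Heyl rose by 2.62 and 3.02 on the log2 scale.

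Dll3, Dll1, and Hes6 carry the hexamer CAGCTG, an E-box form that bHLH factors bind, shortly before a start in RefSeq (GRCm38.p6, the build of the files). The stretches below hold the 250 bases before the start, 5′ to 3′ on the strand of the gene, with the hexamer in capitals. They are shown as examples of called Notch and bHLH genes with the hexamer, and were picked with their values known.
Dll3, chr7:28301786-28302035, minus strand: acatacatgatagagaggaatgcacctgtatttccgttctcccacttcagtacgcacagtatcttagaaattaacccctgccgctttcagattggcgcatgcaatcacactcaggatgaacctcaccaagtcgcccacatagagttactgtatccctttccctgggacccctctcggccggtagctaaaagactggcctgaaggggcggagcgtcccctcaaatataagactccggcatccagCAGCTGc
Dll1, chr17:15376933-15377182, minus strand: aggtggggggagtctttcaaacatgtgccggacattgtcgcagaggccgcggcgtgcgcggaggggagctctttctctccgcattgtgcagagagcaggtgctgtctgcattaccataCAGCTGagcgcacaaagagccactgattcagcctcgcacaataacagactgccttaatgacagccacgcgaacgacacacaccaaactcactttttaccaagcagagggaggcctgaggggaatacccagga
Hes6, chr1:91414039-91414288, minus strand: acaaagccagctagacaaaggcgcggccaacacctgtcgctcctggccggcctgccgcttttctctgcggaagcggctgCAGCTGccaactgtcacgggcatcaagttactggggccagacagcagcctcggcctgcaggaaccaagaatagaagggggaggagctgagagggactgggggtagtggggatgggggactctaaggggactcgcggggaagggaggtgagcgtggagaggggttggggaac

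The hexamer begins 7 bases before the start in Dll3, 132 in Dll1, and 171 in Hes6, whose other start has a copy 150 bases before it. It is common. Promoter windows from 250 bases before to 50 after the start were at hand for 10353 tested genes, matched by symbol, and 18.2% of them held CAGCTG in at least 1 window, as did 18.3% of all 27025 genes with windows. The share was 24.5% (538 of 2200) among the genes that rose and 15.7% (322 of 2053) among those that fell. The E-box CACGTG, the form bound by CLOCK and BMAL1 and by MYC, went the other way, with 8.23% among the rises, 15.6% among the falls, and 11.5% of all tested genes. Both hexamers read the same on either strand. TGACTCA, the AP-1 element bound by Fos and Jun proteins, was in 4.27% of the rises, 6.43% of the falls, and 4.51% of all tested genes, counted on both strands. CCAAT was in 42.6%, 42.2%, and 42.8% of them, in the same order. TTTGAA, the core of the cell cycle element CHR, was in 14.2%, 13.2%, and 14.1%, and CACCCCAC, given here as an SREBP-type element, in 4.18%, 3.99%, and 3.82%. These shares are a description and say nothing of binding.

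Neuronal structural genes moved unequally by day 2. In the list of cytoskeleton and axon growth, 26 of 47 tested members rose and 5 fell (median 0.94); leaving out replicate 1 or replicate 2 of day 0 leaves 3 of the falls. Tubb3, the neuronal tubulin and a standard early marker of iN cells, was at 23.5, 20.6, and 22.7 FPKM on day 0 and 92.9, 95.1, and 127 FPKM on day 2, a log2 fold change of 2.22 (standard error 0.226, adjusted p = 4.92e-08). Dcx, which stabilises microtubules in migrating neurons, went from 0.0125, 0.0191, and 0.0118 to 1.53, 1.99, and 1.75 FPKM, and Map2, the dendritic microtubule protein, from 0.629, 1.26, and 0.318 to 4.26, 6.51, and 6.17 FPKM. The libraries of the 2 days did not overlap for any of the 3. Elavl3, a neuronal RNA-binding protein, had no fragment on day 0 and 0.7900, 1.34, and 1.47 FPKM on day 2, which is at least 54.9-fold higher when each day 0 library is set at a floor of 3 fragments. Nsg2, an endosomal protein of young neurons, rose by 6.23 and the tubulin-binding Dpysl4 by 2.72 on the log2 scale.

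Mapt, which encodes tau, was not called. It was at 0.202, 0.289, and 0.192 FPKM on day 0 and 0.231, 0.284, and 0.232 FPKM on day 2, and the groups overlapped. Its log2 fold change was 0.10 (standard error 0.295, adjusted p = 0.789). Stmn2, a tubulin-binding protein of growing axons, was at 11.9, 23.01, and 9.103 FPKM on day 0 and fell to 4.64, 3.94, and 4.998 FPKM, a call that was lost without replicate 2 of day 0 (log2 fold change -1.19, adjusted p = 0.0759). Gap43 was at 36.3, 27.3, and 35.4 FPKM on day 0 and 16.4, 14.97, and 14.3 FPKM on day 2, with no overlap but an adjusted p of 0.0612 from limma. On day 0 the FPKM of all 3 genes lay above those of Dcx and Elavl3 in every library.

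**Figure D2:**
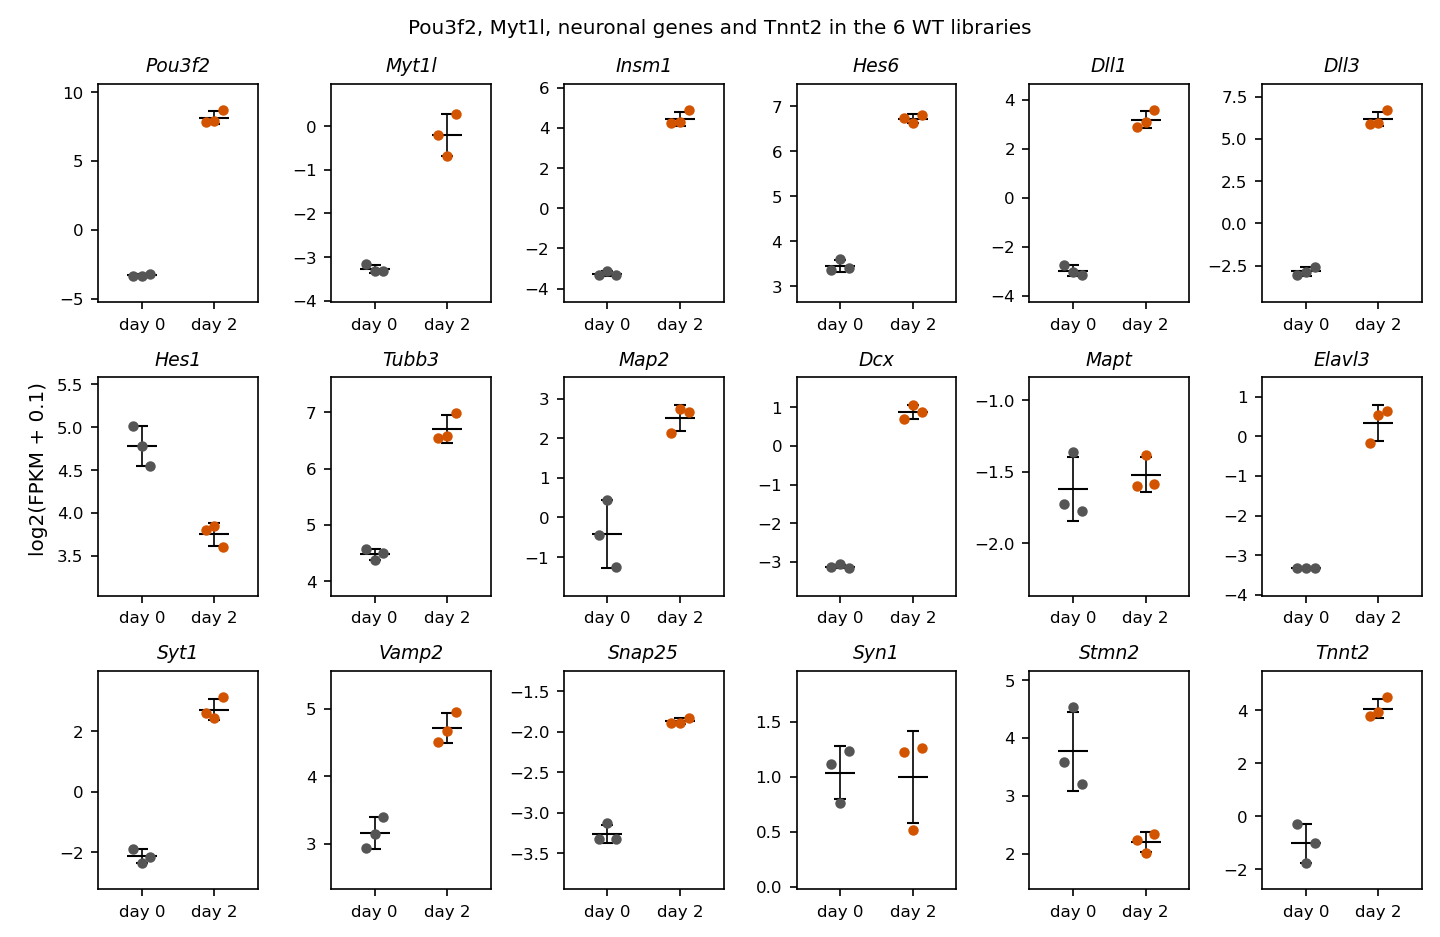
Levels in log2(FPKM + 0.1) of 18 genes in the 3 WT libraries of day 0 (grey) and the 3 of day 2 (orange), with the mean and SD of each group; each panel has its own scale. Pou3f2, Myt1l, Insm1, Hes6, Dll1, Dll3, Tubb3, Map2, Dcx, Elavl3, Syt1, Vamp2, Snap25, and Tnnt2 are higher in every day 2 library, Hes1 and Stmn2 are lower, and Mapt and Syn1 overlap.

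Of 52 listed synaptic vesicle and secretory granule genes 37 were tested. Of these 24 rose and 3 fell (median 1.45), but several were still near the floor. The share of rises and the median depend in part on the filter, as above. The summed level of the 52 genes overlapped, at 341 to 402 FPKM on day 0 and 338 to 415 FPKM on day 2. Syt1, the calcium sensor of vesicle release, rose from 0.1702, 0.0985, and 0.126 to 5.96, 5.27, and 8.54 FPKM, and Vamp2, the vesicle SNARE, from 7.52, 8.72, and 10.4 to 22.7, 25.3, and 30.98 FPKM. Scg5, a chaperone of the secretory granule, rose by 5.53, and Pclo, a scaffold of the active zone, by 5.02 on the log2 scale. Chga and Chgb, the granins, rose to means of only 0.8900 and 3.12 FPKM. Snap25 rose from 2 fragments over the 3 day 0 libraries to 0.171, 0.1704, and 0.182 FPKM. The ratio of day 2 to day 0 was 35.3 (95% counting interval 9.44 to 297). Syn1 did not pass the test, at 2.07, 1.597, and 2.25 FPKM on day 0 and 2.24, 1.33, and 2.29 FPKM on day 2. Syp was at 0.267, 0.178, and 0.207 FPKM on day 2 and was below the filter.

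Of 55 listed genes of neuronal channels and receptors 36 were tested, of which 26 rose and 2 fell (median 1.75). Here too members near 0 on day 0 were tested only because they were higher in other libraries. The share of rises and the median thus depend in part on the filter. With a filter at a mean of 1 FPKM, 16 rises were left. Chrna4, a nicotinic receptor subunit, went from 0, 0.0289, and 0 to 1.81, 2.19, and 2.83 FPKM, a ratio of 223 (95% counting interval 76.1 to 1086). Glrb, the beta subunit of the glycine receptor, rose from 0.756, 2.201, and 0.728 to 13.5, 14.3, and 20.4 FPKM. Cacna1b, the N-type calcium channel, rose by 2.30 and the calcium channel subunit Cacnb1 by 1.75. Gria2, an AMPA receptor subunit, was at 0.293, 0.432, and 0.437 FPKM on day 2 after 0.0169, 0.0342, and 0.00641 FPKM on day 0. Scn3a stayed below the filter.

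The splicing and chromatin switch of neurons had moved in part. Of 28 tested members 12 rose and 4 fell (median 0.32). Srrm3 and Nova2, activators of neuronal exons, rose to means of 1.65 and 1.91 FPKM from 0.00273 and 0.1196 FPKM, and Rcor2, a REST corepressor family member, from a mean of 3.89 to 24.1 FPKM. Ptbp1, the repressor of neuronal exons in other tissues, fell from 98.6, 90.8, and 116 to 67.2, 57.1, and 55.1 FPKM as deposited, but the call was not made after rescaling to a common sum (-0.33), and neither was any other fall of the list. Ptbp2, its neural paralog, had a log2 fold change of 0.26 (standard error 0.144, adjusted p = 0.123). Rest, the repressor of neuronal genes, was at 12.3, 13.2, and 13.9 FPKM on day 0 and 14.7, 15.2, and 12.6 FPKM on day 2, overlapping. Srrm4, the activator that opposes Rest, had 0.654, 0.613, and 0.646 FPKM on day 2 and was not called either.

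Many muscle genes rose alongside the neuronal ones. Of 48 listed muscle genes 27 were tested, of which 15 rose and 3 fell (median 1.22). As for the neuronal transcription factors, the share of rises and the median depend in part on the filter. The summed level of the 48 genes was lower on day 2, at 155 to 205 FPKM after 274 to 474 FPKM on day 0. Tnnt2, cardiac troponin T, went from 0.705, 0.193, and 0.399 to 13.7, 15.02, and 22.2 FPKM, a log2 fold change of 5.09 (standard error 0.471, adjusted p = 1.38e-08). Myod1, the myogenic bHLH factor, reached 0.934, 1.49, and 1.22 FPKM, and Actc1, cardiac actin, 4.92, 4.79, and 7.25 FPKM. Myog was at 0.336, 0.464, and 0.138 FPKM on day 2 and was not called, and Ttn and Tnnc2 stayed below the filter. Acta1, skeletal actin, which MEFs in serum also express, fell from 308, 179, and 274 to 9.63, 8.33, and 9.92 FPKM, and Des from 74.9, 18.6, and 45.03 to 7.98, 6.705, and 8.91 FPKM.

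The contractile program of the fibroblasts had the largest share of falls of all lists. Of 42 tested genes of the actin cytoskeleton and targets of SRF or YAP, 35 fell and 2 rose, with a median of -1.59; after rescaling to a common sum 28 fell and the median was -1.16. Acta2 (ENSMUSG00000035783, chromosome 19 from 34241090 to 34255336), smooth muscle actin and the mark of myofibroblasts, was at 3463, 2539, and 2887 FPKM on day 0 and 508, 479.8, and 429 FPKM on day 2, a log2 fold change of -2.64 (standard error 0.363, adjusted p = 2.67e-06). Cnn1, an actin-binding inhibitor of contraction, fell from 191, 166, and 105 to 8.099, 8.46, and 5.96 FPKM and Myl9, a myosin light chain, from 654, 572, and 465 to 125, 127, and 105 FPKM. Ctgf, a YAP target, fell from 588, 467, and 375 to 53.1, 44.6, and 27.8 FPKM. Each day 2 library lay below all day 0 libraries for these genes. Axl, a receptor kinase and YAP target, had a log2 fold change of -2.45 (standard error 0.106, adjusted p = 4.22e-13). Actn4 and Cald1, which crosslink and steady actin filaments, fell by 1.86 and 1.32 on the log2 scale.

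The extracellular matrix was split. Of 64 tested members 23 (35.9%) rose and 16 (25%) fell, so the median was 0.13. After rescaling 32 rose and 9 fell, with a median of 0.56 beside 0.41 over all tested genes. Among the falls, Timp1, an inhibitor of metalloproteinases, went from 355, 363, and 280.2 to 60.1, 48.6, and 35.1 FPKM, a log2 fold change of -2.82 (standard error 0.186, adjusted p = 1.33e-10). The groups did not overlap. Thbs1 and Tnc, matricellular proteins of wounds, fell by 2.21 and 2.41, and Loxl3, a collagen crosslinker, by 2.13 on the log2 scale. Fn1, fibronectin, fell by 0.91, a call that was not made after rescaling (-0.48).

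Among the rises, Col3a1, a fibrillar collagen, went from 120.3, 139.9, and 127 to 650.3, 893, and 602 FPKM, a log2 fold change of 2.45 (standard error 0.347, adjusted p = 3.98e-06). Lum, a proteoglycan that spaces collagen fibrils, rose from 5.904, 2.92, and 5.48 to 119, 106, and 38.6 FPKM, and Dcn, its relative, from 11.8, 3.14, and 15.3 to 36.8, 49.6, and 53.4 FPKM. Replicate 3 of day 2 had the least Lum of its group and the most Dcn. Eln, elastin, rose from 3.17, 6.83, and 3.29 to 29.8, 70.3, and 18.9 FPKM with a wide spread on day 2. Col1a1, the main collagen, was at 1083, 1422, and 1095 FPKM on day 0 and 1647, 2078, and 1208 FPKM on day 2 and was not called. Its log2 fold change was 0.43 (standard error 0.217, adjusted p = 0.0916), but it was called higher after rescaling (0.86) and without replicate 3 of day 2 (0.64, adjusted p = 0.0225).

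Fibroblast transcription factors were mixed. Of 46 tested members 9 (19.6%) rose and 14 (30.4%) fell (median -0.07), beside 20.8% and 19.7% of all tested genes. After rescaling 15 rose and 7 fell, with a median of 0.35 beside 0.41 over all tested genes. Fosl1, an AP-1 subunit that holds the fibroblast enhancer state, fell from 31.1, 28.9, and 31.7 to 2.87, 2.17, and 2.68 FPKM, and Fosl2 by 1.81 on the log2 scale. Twist2 fell from 13.3, 8.98, and 26.5 to 2.98, 3.39, and 4.61 FPKM. Twist1, Snai1, and Snai2, which define mesenchymal cells, were not called, with log2 fold changes of 0.11, -0.15, and 0.00, and their groups overlapped. Of 16 tested fibroblast markers 8 rose and 5 fell; Vim, the mesenchymal intermediate filament, fell from a mean of 1365 to 586 FPKM, and Pdgfra was at 16.7, 20.8, and 13.5 FPKM on day 2 and not called. The summed level of these markers was 3284 to 3761 FPKM on day 0 and 3313 to 5052 FPKM on day 2.

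**Figure D3:**
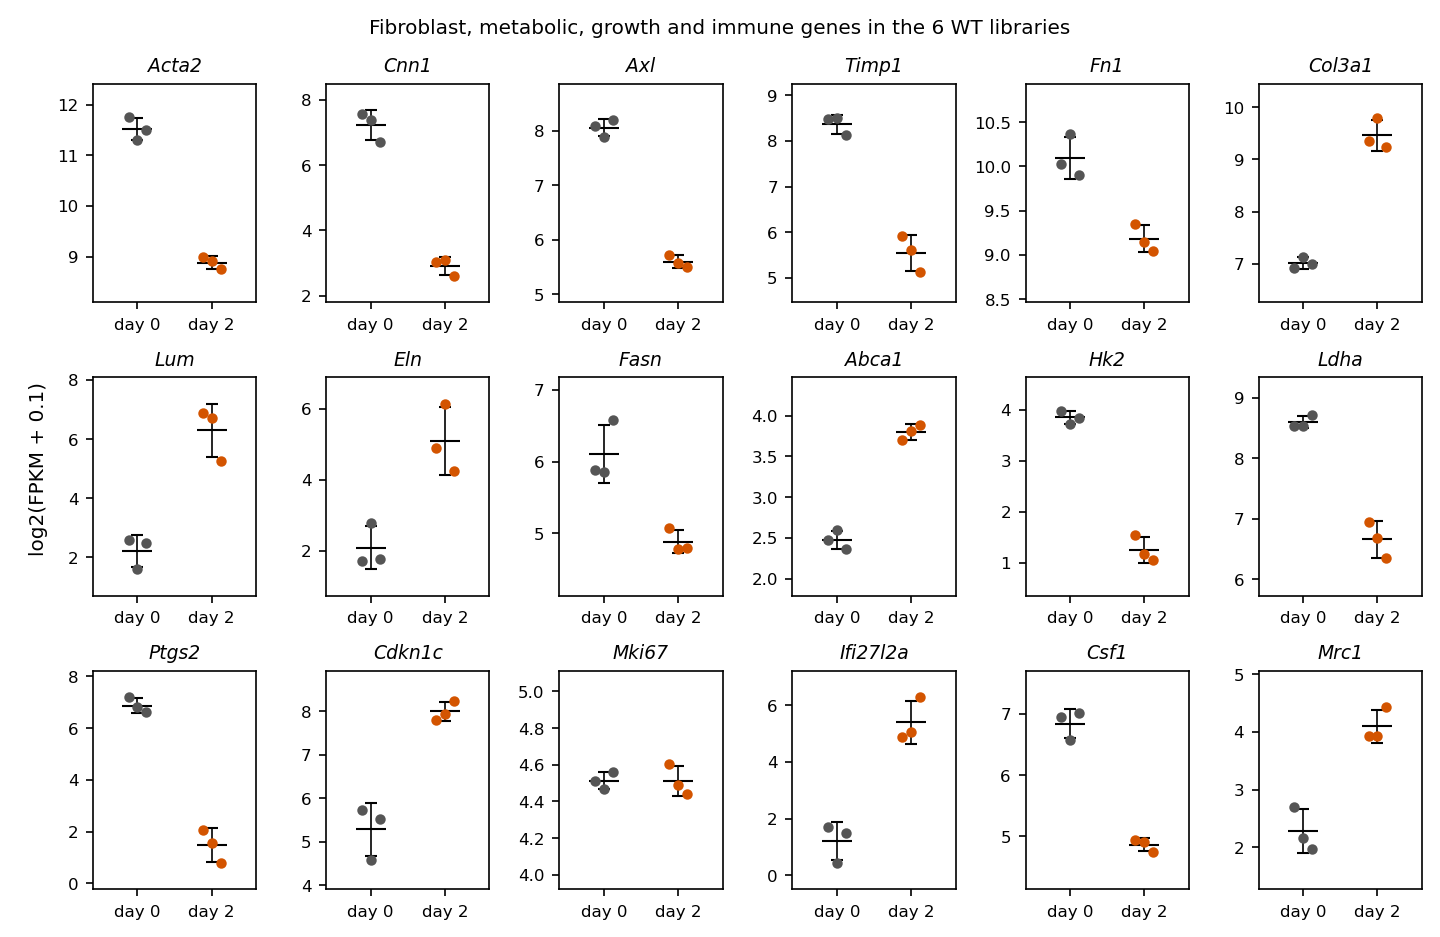
Levels in log2(FPKM + 0.1) of 18 genes in the 3 WT libraries of day 0 (grey) and the 3 of day 2 (orange), with the mean and SD of each group; each panel has its own scale. Acta2, Cnn1, Axl, Timp1, Fn1, Fasn, Hk2, Ldha, Ptgs2, and Csf1 are lower in every day 2 library, Col3a1, Lum, Eln, Abca1, Cdkn1c, Ifi27l2a, and Mrc1 are higher, and Mki67 overlaps.

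Many genes that answer to serum and to ERK signalling fell. Of 30 tested immediate early and serum response genes 18 fell and 1 rose (median -1.0); without replicate 2 of day 0, 4 rose. Ptgs2, which makes prostaglandins, fell from 146, 112, and 97.8 to 4.11, 2.86, and 1.63 FPKM, and Plaur, the urokinase receptor, from 54.9, 45.4, and 42.02 to 2.88, 2.63, and 2.03 FPKM. Ier3 and Hbegf, an ERK-induced survival gene and an EGF-type ligand, fell by 2.87 and 3.03 on the log2 scale, and Myc, counted with the G1 genes below, by 1.57. Fos and Egr1 were not called. Fos was at 2.75, 14.5, and 3.39 FPKM on day 0 and 15.9, 14.4, and 8.51 FPKM on day 2, and without the high replicate 2 of day 0 it was called higher (log2 fold change 2.00, adjusted p = 0.00822). Egr1 had the same high replicate, at 10.3, 62.2, and 19.5 FPKM on day 0 and 35.6, 38.4, and 26.2 FPKM on day 2, and was called higher without it (log2 fold change 1.21, adjusted p = 0.0368).

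Of 21 tested genes of FGF signalling and ERK feedback 13 fell and 2 rose (median -0.83); the day 2 medium held basic FGF. Dusp5 and Dusp4, phosphatases that ERK induces against itself, fell by 3.68 and 2.90, and the ERK target Etv4 from 19.1, 14.2, and 20.8 to 4.64, 3.300, and 3.03 FPKM. Dusp6 fell by 1.37. Etv5 was at 11.98, 13.99, and 13.5 FPKM on day 0 and 13.9, 12.2, and 11.7 FPKM on day 2 and overlapped.

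Most genes of proliferation were not called by day 2, and few rose. Of 62 tested mitosis genes 11 fell and 1 rose, with a median of -0.33 that turned to 0.09 after rescaling, where 1 fell; without replicate 1 of day 0 or replicate 3 of day 2, 7 fell. Of 53 DNA replication genes 8 fell and 1 rose, and their median turned from -0.32 to 0.11. Both shares of falls, at 17.7% and 15.1%, lay below the 19.7% of all tested genes. The shares of rises, at 1.61% and 1.89%, lay far below the 20.8% of all tested genes. Both medians were also below those of all tested genes, -0.01 as deposited and 0.41 after rescaling. Mki67, a proliferation marker, was at 22.7, 22.1, and 23.5 FPKM on day 0 and 24.2, 22.4, and 21.6 FPKM on day 2, and Top2a at 26.6, 24.01, and 25.1 and 26.6, 25.1, and 21.97 FPKM. Rrm2, the small subunit of ribonucleotide reductase, fell from 57.4, 58.8, and 51.8 to 31.1, 23.8, and 25.7 FPKM, and the cytokinesis gene Anln by 1.35.

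The regulators of G1 moved further. Of 24 tested members 9 (37.5%) fell and 4 (16.7%) rose. Their median of -0.40 turned to 0.04 after rescaling, below the 0.41 of all tested genes, and 4 fell and 6 rose there. Cdkn1c, the CDK inhibitor p57, rose from 53.1, 23.8, and 45.7 to 223, 245, and 302 FPKM, a log2 fold change of 2.71 (standard error 0.282, adjusted p = 6.42e-08), and Cdkn2c and Ccng2 by 1.09 and 1.26. Cdkn2b, a TGF-beta-induced inhibitor, fell from 60.4, 74.4, and 49.1 to 24.2, 21.4, and 18.4 FPKM. Ccnd1, Ccnd2, and Cdkn1a fell by 0.97, 0.90, and 0.82 as deposited and were not called after rescaling. Of 20 tested p53 targets 10 fell and 2 rose (median -0.53, and -0.09 after rescaling); Mdm2 and Plk2 fell by 1.14 and 1.16, and Sesn1, which FOXO factors also induce, rose by 1.51. Without replicate 2 of day 2, 4 of the p53 targets rose.

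Many genes of sterol and fatty acid synthesis fell. These genes are held by SREBP factors, which sterols restrain. Of 39 tested genes of sterol and fatty acid synthesis 26 fell and none rose (median -0.93). The count was sensitive: 12 fell and 3 rose after rescaling, and 17 fell without replicate 3 of day 0, which was the highest of its group for the members named here. Fasn, the fatty acid synthase, fell from 59.2, 57.8, and 95.5 to 33.6, 27.5, and 27.7 FPKM, a log2 fold change of -1.22 (standard error 0.193, adjusted p = 1.52e-05). Insig1, an SREBP target that also restrains SREBP, fell from 46.5, 33.8, and 67.8 to 23.7, 18.8, and 19.02 FPKM. The groups did not overlap for either gene. Of 8 tested genes of sterol efflux, targets of the liver X receptors, 4 rose and 1 fell (2 rose without replicate 1 of day 0). Abca1, the cholesterol exporter, rose from 5.46, 5.93, and 5.06 to 12.9, 13.9, and 14.6 FPKM, and Abcg1 by 1.33 on the log2 scale.

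Most tested glycolysis genes fell. Of 27 tested genes 18 fell and 3 rose (median -1.05, and -0.62 after rescaling, where 14 fell). Hk2, the inducible hexokinase, fell from 15.7, 13.04, and 14.2 to 2.82, 2.15, and 1.97 FPKM, and Slc2a1, the glucose transporter, from 51.6, 42.95, and 58.3 to 11, 9.29, and 8.69 FPKM. Ldha, lactate dehydrogenase, fell from 372, 372, and 419.8 to 124, 102, and 80.9 FPKM, a log2 fold change of -1.94 (standard error 0.173, adjusted p = 8.30e-09). The groups did not overlap for any of them. Aldoa and Gpi1 fell by 1.72 and 0.96; some enzymes of this list have many pseudogenes, which share reads with them. Of 25 tested genes of oxidative stress 14 fell and 3 rose (median -0.82). After rescaling 11 fell and 8 rose, with a median of -0.38. Nqo1, an NRF2 target, fell from 19.2, 30.1, and 20.5 to 5.92, 4.66, and 4.14 FPKM, Srxn1 by 1.72, and Gpx4 by 1.18, while Txnip and Selenop rose by 1.12 and 1.58. Of 30 tested genes of the amino acid and integrated stress response 10 fell and none rose, with a median of -0.46. After rescaling 4 fell and 4 rose, with a median of -0.03. As deposited, 2 rose without replicate 3 of day 2. Ddit3 fell from 28.99, 29.3, and 30.4 to 11.3, 13.98, and 8.14 FPKM, and Chac1 and Trib3, targets of the same ATF4 pathway, were not called (log2 fold changes -0.19 and 0.20).

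Most tested interferon-stimulated genes rose. Of 33 tested members 23 rose and none fell, with a median of 1.23. Ifi27l2a was at 3.18, 1.25, and 2.69 FPKM on day 0 and 29.3, 33.2, and 77.4 FPKM on day 2, with the third library of day 2 the highest. Cmpk2 and Oasl2 rose by 2.76 and 2.87 on the log2 scale. Isg15, a ubiquitin-like protein, rose from 4.03, 6.27, and 6.001 to 25.99, 24.5, and 20.2 FPKM, and Ifit1 from 1.42, 0.801, and 1.13 to 6.003, 6.19, and 6.01 FPKM. All 3 day 2 libraries of these genes lay above all day 0 libraries. Macrophages can express this set too, and their markers are given next. Their part in the rise was not tested.

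Macrophage markers rose in part. Of 43 tested members 16 (37.2%) rose and 1 (2.33%) fell (median 0.85). After rescaling 26 rose, with a median of 1.28 beside 0.41 over all tested genes. The count of rises as deposited fell to 9 without replicate 2 of day 0, replicate 3 of day 0, or replicate 3 of day 2, and to 10 when all genes above 0 were tested. The summed level of the 47 listed markers overlapped, at 369.9 to 727 FPKM on day 0 and 476 to 743 FPKM on day 2, and none of the markers was at 0 in all 6 libraries. Mrc1, the mannose receptor, rose from 6.39, 4.38, and 3.79 to 15.2, 15.1, and 21.5 FPKM. Cx3cr1, the fractalkine receptor, rose from 1.42, 0.708, and 0.708 to 6.98, 4.59, and 5.47 FPKM, and Aif1 by 2.62 on the log2 scale. Ptprc, the pan-leukocyte CD45, rose by 1.48. Lyz2, the most abundant of the markers, was at 296, 116, and 113 FPKM on day 0 and 174, 115, and 236 FPKM on day 2 and overlapped, as did Adgre1, Cd68, and C1qa. Gpnmb, which fibroblasts also express, fell by 1.68. In bulk samples, more cells of a type and more RNA per cell cannot be told apart.

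More inflammatory mediators fell than rose. Of 26 tested members 7 (26.9%) fell and 1 (3.85%) rose (median -0.08), beside 19.7% and 20.8% of all tested genes. After rescaling 5 fell and 3 rose, and 2 rose without replicate 2 or replicate 3 of day 0. The rise was that of Cxcl13, a chemokine named here after its value was seen, which had no fragment on day 0. Csf1, the growth factor of macrophages, fell from 123, 94.7, and 129 to 30.5, 30.1, and 26.8 FPKM, a log2 fold change of -1.97 (standard error 0.201, adjusted p = 5.03e-08). The chemokines Ccl2 and Ccl7 fell by 1.84 and 1.45, and Cxcl14 by 1.56. Tnf and Cxcl5 overlapped between the days and were not called.

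Of 21 tested circadian clock genes 6 (28.6%) rose and 2 (9.52%) fell (median 0.12), beside 20.8% and 19.7% of all tested genes. Without replicate 2 of day 0, 4 fell. Bhlhe40, a repressor of the clock that serum induces, fell from 22.7, 16.4, and 13.5 to 2.86, 2.47, and 1.98 FPKM, and Nfil3 by 1.83. Per2 rose from 0.906, 0.957, and 0.817 to 1.55, 1.78, and 1.39 FPKM and Per3 by 0.95 on the log2 scale. Per1 was at 6.33, 5.58, and 5.44 FPKM on day 0 and 4.76, 4.81, and 4.83 FPKM on day 2, a log2 fold change of -0.26 (standard error 0.138, adjusted p = 0.11), and was not called although the libraries did not overlap. With 1 time of day per group, phase cannot be read from these levels.

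Of the other cell types, some epithelial markers fell. Of 11 listed epithelial markers 5 were tested and 3 fell, and the summed level was 53.5 to 104 FPKM on day 0 and 3.02 to 8.32 FPKM on day 2. Krt19 fell from 57.4, 43.1, and 37.2 to 2.16, 1.59, and 1.14 FPKM, Krt18 from 24.1, 6.59, and 17.4 to 0.699, 0.644, and 0.716 FPKM, and Cldn4 by 4.77 on the log2 scale. The keratins Krt8 and Krt14 were not called (log2 fold changes -1.50 and -0.50). Without replicate 2 of day 0, Krt8 was called lower (log2 fold change -2.94, limma adjusted p = 5.63e-05). Epcam and Cdh1, which define epithelia, were below the filter on both days, at means of up to 0.181 and 0.03298 FPKM. Pericyte and smooth muscle markers fell in 4 of 8 tested members and rose in 2, with Myh11 from 12.3, 9.598, and 11.6 to 1.697, 0.876, and 1.13 FPKM and Notch3 the other way, by 2.04. Spp1, in the list of chondrocyte and bone markers, fell from a mean of 707 to 151 FPKM; Col2a1, the cartilage collagen, varied from 0.267 to 18.8 FPKM within day 2. Of 8 tested Schwann cell markers 1 rose, of 5 endothelial markers 1 rose and 1 fell, of 7 astrocyte markers 3 rose and 1 fell, of 6 adipocyte markers 2 rose and 1 fell, and of 5 oligodendrocyte markers none was called. The rise among Schwann cell markers was lost without replicate 2 of day 0, and those among astrocyte markers without replicate 3 of day 0, replicate 1 of day 2, or replicate 2 of day 2. Those among adipocyte markers dropped to 0 without replicate 2 of day 0 or replicate 3 of day 2. The haemoglobin genes of a red blood cell list were listed at 0 in all 6 libraries. Of 13 tested neuron markers 8 rose and 1 fell (Stmn2, given above), and their summed level was 70.7 to 75.3 FPKM on day 0 and 132 to 169.7 FPKM on day 2.

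The largest changes among genes at 5 FPKM or more were not all neuronal. Beside Pou3f2, Dll3, Insm1, Dll1, and Nsg2, the 15 largest rises held Miat, a long non-coding RNA of the nervous system, which went from 0.0396, 0.0104, and 0.0376 to 70.6, 66.5, and 104 FPKM. They held Pvalb, a calcium buffer of interneurons and fast muscle, which had no fragment on day 0 and 16.99, 14.01, and 21.3 FPKM on day 2, at least 120.4-fold higher against the floor of 3 fragments per library. Bmp7, a ligand of the BMP family, went from 0.196, 0.0361, and 0.285 to 32.96, 20.8, and 43.4 FPKM, and Prph, the peripheral neurofilament protein, from 1.45, 0.0725, and 0.1496 to 29.3, 25.2, and 28.2 FPKM. B3gat1, which makes the HNK-1 epitope, Tnr, a matrix protein of the nervous system, and Cbln2, a synaptic organiser, rose to means of 9.59, 8.704, and 11.7 FPKM from 0.00706, 0.0104, and 0.0642 FPKM. R3hdml and Btbd17 were in the list too.

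The 15 largest falls were led by Lce1h, from 24.4, 6.44, and 8.897 to 0.0547, 0, and 0 FPKM. They held Serpinb9b, Gjb2 (connexin 26), Wfdc2, Krt7, Cldn4, and Aqp5, which are known from epithelia, with day 0 means of 17.8, 14.6, 11.6, 5.76, 5.59, and 12.8 FPKM and day 2 means of 0.225, 0.258, 0.2802, 0.104, 0.0944, and 0.378 FPKM. Nppb, a natriuretic peptide of stretched muscle, fell from 15.3, 6.99, and 3.51 to 0.198, 0.148, and 0.0659 FPKM, and Alkal1, a ligand of the receptor ALK, from 24.6, 24.2, and 16.1 to 0.398, 0.775, and 0.424 FPKM. They also held Ptgs2, Bmp8b, Nipal1, and the non-coding Gm37565 and 2010300F17Rik. In all 30 genes the groups did not overlap, which the rule for naming them required.

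**Figure D4:**
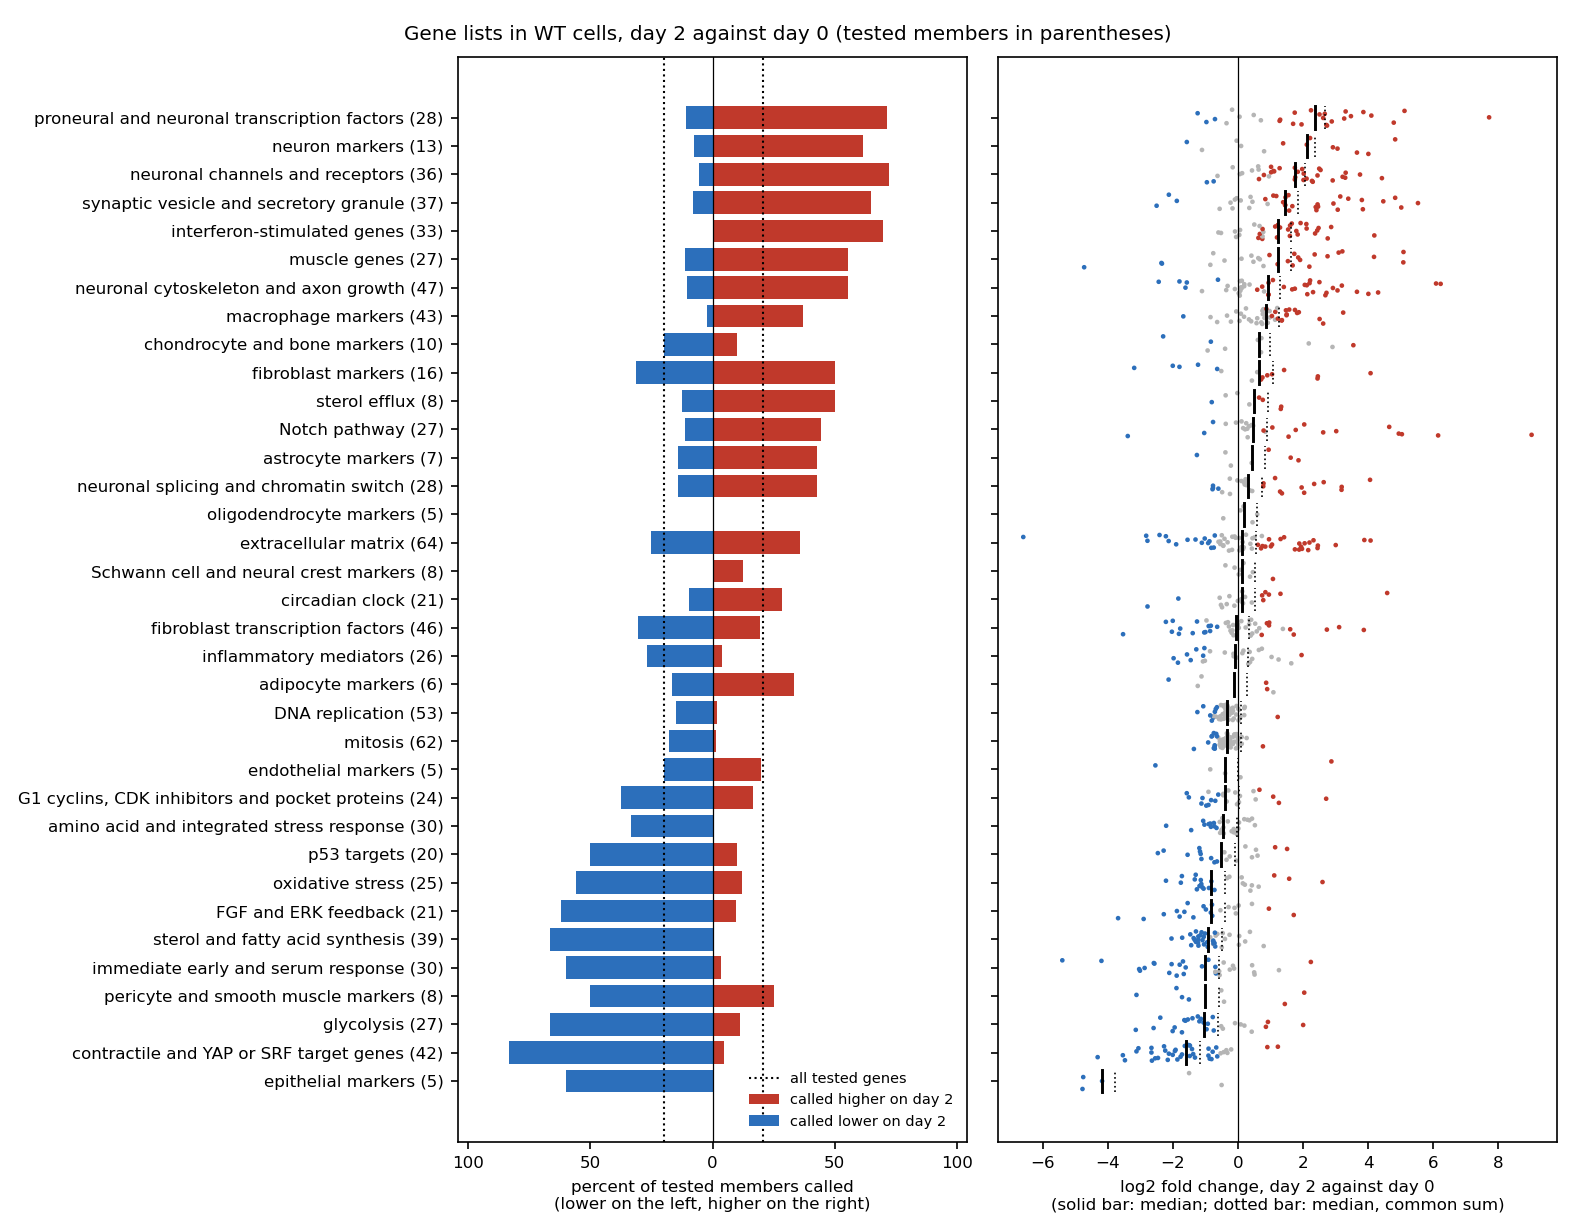
Gene lists in WT cells, day 2 against day 0, ordered by median. Left, percent of tested members called higher (red) or lower (blue), with dotted lines at 20.8% and 19.7% of all tested genes. Right, log2 fold change of each tested member, with the median as deposited (solid) and after rescaling to a common sum (dotted); contractile genes have a median of -1.59 and proneural and neuronal transcription factors one of 2.38.

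Day 4 libraries of WT cells show where the named genes lay next. The comparison shares the day 2 libraries, so the values are given side by side and nothing is concluded from an overlap of the 2 steps. Between day 2 and day 4, 242 genes (1.62%) rose and 237 (1.59%) fell. Of 47 tested genes of neuronal cytoskeleton and axon growth 15 rose in this step and none fell, of 37 synaptic vesicle and granule genes 9 rose and none fell, and of 36 channel and receptor genes 6 rose and 1 fell. Of 28 proneural and neuronal transcription factors 3 rose and 3 fell. As examples, Mapt was at a mean of 0.228, 0.249, and 1.77 FPKM on days 0, 2, and 4, and Snap25 at 0.00474, 0.174, and 2.17 FPKM. Elavl3 was at 1.202 FPKM on day 2 and 6.75 FPKM on day 4, and Chgb at 3.12 and 16.4 FPKM. Each of these 4 was called between days 2 and 4, with limma adjusted p of 8.15e-05, 4.26e-06, 2.83e-05, and 0.000896. Mitosis genes had a median of -0.90 between days 2 and 4, and Mki67 and Top2a fell to means of 12.5 and 12.3 FPKM. The contractile list had a median of -0.19 in this step, after -1.59 in the first. Hes6 was at 10.9, 106, and 55.7 FPKM, and Bmp7 at 0.173, 32.4, and 9.74 FPKM, so both were highest on day 2.

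The same 2 days were compared in the other genotypes. In Per1-/- libraries 3101 genes (20.8%) rose and 2811 (18.8%) fell, and in the libraries labelled Per2-/- 2792 (18.7%) rose and 2508 (16.8%) fell. Per2 itself was at a mean of 1.93 FPKM on day 0 in the latter, beside 0.894 FPKM in WT. Reads outside a deleted part count toward a gene's FPKM, so this level does not check the deletion. Of the 3101 genes that rose in WT, 2651 (85.5%) rose in Per1-/- libraries and 2479 (79.9%) in those labelled Per2-/-. Of the 2944 that fell, 2418 (82.1%) and 2242 (76.2%) fell again. These are 85.5% and 86.0% of the rises and falls of Per1-/- libraries, and 88.8% and 89.4% of those labelled Per2-/-. None of the WT calls was a call in the opposite direction in Per1-/- libraries. In those labelled Per2-/- 1 was, the mitochondrial tRNA gene mt-Tv, named here after its value was seen, which rests on 12 fragments in WT on day 0 and 0 on day 2.

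**Figure D5:**
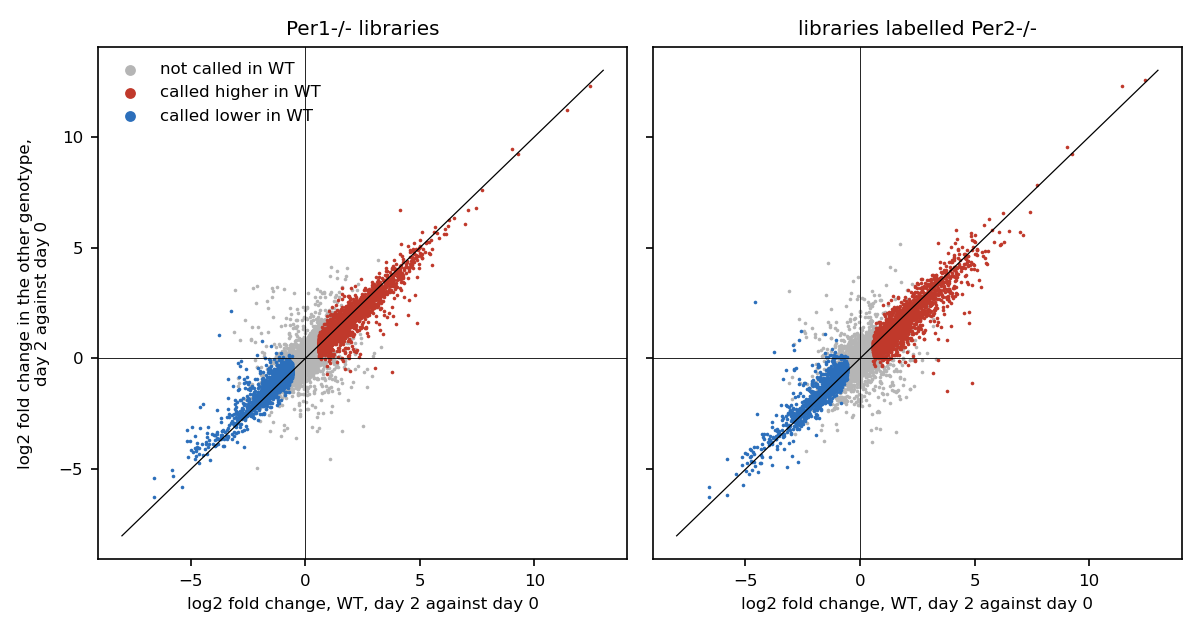
Log2 fold change between day 0 and day 2 of each tested gene in Per1-/- libraries (left) and in the libraries labelled Per2-/- (right) against that in WT cells, with the line of equal change. Red and blue points are the 3101 and 2944 genes called in WT.

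Tested directly by limma's interaction contrast at the thresholds above, no gene's change was called different between WT and Per1-/- libraries. None was called between WT libraries and those labelled Per2-/- either, nor in either comparison with voom weights on fragments. At an unadjusted p under 0.05 there were 306 genes against Per1-/- (2.05%) and 434 against the label Per2-/- (2.91%), and with voom 275 and 384. The median standard error of such a difference was 0.23 on the log2 scale in both. The smallest adjusted p of limma's interaction contrast was 0.791 against Per1-/- and 0.147 against the label Per2-/-. At the latter value lay mt-Tv, whose difference of -7.15 (standard error 1.23) was still not called. Large differences could thus be missed too, and the lack of calls does not show that the changes were alike. Group medians lay side by side as follows. The contractile list was at -1.59 in WT, -1.59 in Per1-/-, and -1.53 in the libraries labelled Per2-/-, and the proneural list at 2.38, 2.16, and 1.97. Interferon-stimulated genes were at 1.23, 1.70, and 1.03, and mitosis genes at -0.33, -0.62, and -0.28. Macrophage markers were furthest apart of all lists, at 0.85, 1.33, and 0.03, and none of them was called by the interaction contrast.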

How the data were processed

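RNA of 27 libraries, 9 groups of 3, was sequenced as poly-A-selected, unstranded paired reads. Per the submitters' notes and methods, the authors aligned reads to GRCm38 (mm10) with HISAT2 2.0.5 and counted them per Ensembl gene with featureCounts 1.5.0-p3; overlapping and antisense genes, and pseudogenes near their parent genes, can therefore share reads. The authors deposited FPKM for 54532 genes, 1 column per library and none of unknown sample. The depth behind them was read back from the low values: with the gene length, 100% of the values in each library were whole fragments within 0.01, which showed that the deposited FPKM also carry a size factor per library.

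Groups were taken from the genotype and day in the labels. limma 3.58.1 in R 4.3.3 (lmFit, contrasts, eBayes with trend) was run on log2(FPKM + 0.1) of the 14932 genes whose mean over the 27 libraries reached 0.5 FPKM, with 9 groups and no block, and p-values were adjusted over these genes by the Benjamini-Hochberg method. A permutation test of 3 libraries against 3 cannot go below a two-sided exact p of 0.1, so none is given. The labels call the replicates biological; whether they came from separate MEF preparations is not given in the sources used here, and p-values measure the spread between these libraries. On simulated data for this comparison, with 14932 genes of which 200 were changed, 71.5% were recovered at a log2 fold change of 1, with 9 false calls, and 90.0% at 2, with 6. With none changed, 0 genes were called. The simulation took the scaling of each library as known and changed far fewer genes than were called in the data. Its rates therefore need not hold for the comparison itself.

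Alternatives covered the pseudocount, the filter, the scaling, the thresholds, the libraries in the fit, voom on fragments, a replicate block, and leaving out each library. The replicate numbers do not pair the libraries: deviations of same-numbered libraries from their group means correlated at 0.017, 0.0458, and 0.037. The gene lists and members were chosen with earlier results of these data known. Named genes were the members marked as key in the lists, the 15 largest rises and 15 largest falls among called, non-overlapping genes at 5 FPKM or more, and the 3 called members of each list with the largest moderated t. Promoter windows and gene starts came from RefSeq (GRCm38.p6), matched by symbol. The results of a few of these genes are not reported here. Figures were drawn with matplotlib 3.10.9.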

Additional observations from a re-analysis of the deposited data

How the results depend on the processing

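Of the alternatives, the scaling and the thresholds moved the counts most. With FPKM rescaled to a common sum, 5564 genes rose and 1253 fell, in place of 3101 and 2944. With a log2 fold change of at least 1, 2007 rose and 1385 fell, and with no minimum fold change 4616 fell. Leaving out 1 library gave 2909 to 3103 rises and 2757 to 2974 falls. Size factors computed again gave the same counts, since the deposited values already carry them. Pseudocounts of 1 and 0.01 gave 2319 and 3133 rises, voom on fragments 3106 rises and 2953 falls, a filter at a mean of 1 FPKM 2529 and 2765, and all genes above 0 3891 and 3202. The replicate block, with numbers that do not pair the libraries, gave 3211 rises and 3011 falls. No called gene named here changed its direction under any of these alternatives, while the medians of the fibroblast transcription factor, mitosis, DNA replication, G1, inflammatory, and adipocyte lists turned positive after rescaling. The median of all tested genes turned positive there too, from -0.01 to 0.41. Of the 299 named genes that were tested, 256 kept their side of the threshold after rescaling and 295 with voom.

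Against Per1-/- libraries, 1 gene was called with a larger and 1 with a smaller change in WT when all genes above 0 were tested, beside 0 and 0. Against the libraries labelled Per2-/-, 1 was called larger in WT in that setting and 3 with a pseudocount of 0.01, and leaving out 1 library gave 0 to 1 in each direction. The causes were not tested. Depth limits the genes with few day 0 fragments, whose ratios have wide counting intervals.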

Other observations

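Some genes turned back between day 2 and day 4. The step from day 2 to day 4 shares the day 2 libraries with the first step, so a high or low day 2 group alone moves a gene both ways. Of the 3101 genes that rose by day 2, 124 rose again and 58 fell by day 4. Of the 2944 that fell, 33 rose and 58 fell again. Over all 14932 tested genes, 1.62% rose and 1.59% fell in this step, and no excess of turns back is read from these counts. The genes named in this section were chosen after their values were seen, apart from Bmp7. Chrna7, a nicotinic receptor subunit, was at 0.863, 0.569, and 1.01 FPKM on day 0, at 7.39, 6.56, and 13.5 FPKM on day 2, and at 2.55, 2.55, and 4.69 FPKM on day 4. Col25a1, a membrane collagen of neurons, was at means of 0.162, 6.95, and 2.16 FPKM on the 3 days, and Parm1 at 4.36, 47.3, and 18.9 FPKM. Day 2 was the highest day for each of these, as it was for Bmp7. In the other direction Gsn, the actin-severing gelsolin, was at 378, 171, and 313 FPKM, and Lgals3, galectin 3, at 146, 29.9, and 73.2 FPKM. Vgf, a neuropeptide precursor, was at 1.31, 0.219, and 1.01 FPKM. Sfrp2, a secreted inhibitor of Wnt signalling, rose in both steps, from 5.37 to 39.5 and 189 FPKM.

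Classes of transcript moved unequally, beside 20.8% of all tested genes that rose and 19.7% that fell. Of 258 tested long intergenic RNAs 87 rose and 47 fell, and of 277 antisense RNAs 69 rose and 20 fell, although the reads carry no strand. Of 740 processed pseudogenes 33 rose and 242 fell, and these share reads with their parent genes. Among the long non-coding RNAs, 6330403K07Rik rose from 1.30, 1.71, and 1.94 to 29.1, 35.0, and 33.2 FPKM, and the imprinted Meg3 from a mean of 22.4 to 38.8 FPKM. Neat1, the scaffold of paraspeckles, fell from a mean of 7.49 to 3.29 FPKM.

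The mean sum of all FPKM decreased by 94663.5 from day 0 to day 2, and the 20 genes with the largest loss made up 30.9% of it. The largest loss among these was that of Gm23935, annotated as a miRNA, at means of 32096 FPKM on day 0 and 22589 FPKM on day 2. It was not called (limma adjusted p = 0.342). Also among the 20 genes, Actb, cytoplasmic actin, was at a mean of 2277 FPKM on day 0 and 733 FPKM on day 2, and Lgals1, galectin 1, at 2672 and 1160.2 FPKM.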
